A study of Homo sapiens with 2 samples.

Results

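Outside chromosome ends and centromeres, the long arms and short arms of human chromosomes 2 to 7 held a thin scatter of TRF2 peaks. The peaks described here are those of the deposited list whose summit lay on chromosomes 2 to 7 and over 2 Mb from either chromosome end and from the centromere band of hg38. They numbered 1064 of the 24258 peaks in the whole list, and were chosen by position alone. The binding of TRF2 was measured by sequencing of immunoprecipitated chromatin from HCT116, an established human colon cancer cell line. The immunoprecipitated library was made with an anti-TRF2 antibody, 5 μg for 100 μg of chromatin, and the input library was made from the same line with no antibody. The labels give no treatment for either; cells were grown in serum-containing medium, fixed with 1% formaldehyde 72 h after plating, and their chromatin was sheared to about 300 to 400 bp. A control siRNA appears in the name of the peak list but not in the labels, which leaves unsettled whether the cells had been transfected.

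TRF2, the product of TERF2, is a subunit of shelterin, the protein complex that coats chromosome ends. It binds the double-stranded TTAGGG repeats of telomeres as a dimer through a Myb-type domain, shapes the end into a protected loop and keeps it from being treated as a DNA break. TRF2 is also known at sites away from chromosome ends, among them stretches of telomere-like repeats inside chromosomes and some gene promoters.

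There was 1 library on each side, which allows no test of a difference between samples, and no p-value of one is given. The intervals below are exact Poisson intervals for counts per Mb and exact binomial (Clopper-Pearson) intervals for shares, both at 95%. They cover counting error only, and summits that crowd in 1 locus are not independent counts. The fold, p-value and q-value of a peak are the authors' values from their peak caller. The number of reads over each summit and the input background were recovered from the fold and the p-value.

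Few of these peaks lay near a gene start. Within 3 kb of a RefSeq transcript start were 24 of the 1064 summits (2.26%), in windows that held 4.92% of the arm length. Strong peaks are defined here by a −log10 q-value of at least 5. Of these 80, 6 lay in such windows (7.50%, 2.80 to 15.6%), so the scarcity was not seen for them. Of the 1064 summits, 7 were within 1 kb of a transcript start, and 3 of those belonged to strong peaks. The 250 bases upstream of these 3 starts, from RefSeq (GRCh38.p14), are shown because they are the gene starts that strong peaks came closest to; capitals mark bases inside the deposited peak interval.
NME8 upstream, chr7:37848347-37848596 (+ strand): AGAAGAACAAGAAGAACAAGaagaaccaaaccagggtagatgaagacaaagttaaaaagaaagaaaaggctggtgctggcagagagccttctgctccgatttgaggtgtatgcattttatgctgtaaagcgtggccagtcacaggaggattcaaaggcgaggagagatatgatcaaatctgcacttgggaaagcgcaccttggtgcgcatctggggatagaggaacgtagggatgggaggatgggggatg
CMSS1 upstream, chr3:100114683-100114932 (+ strand): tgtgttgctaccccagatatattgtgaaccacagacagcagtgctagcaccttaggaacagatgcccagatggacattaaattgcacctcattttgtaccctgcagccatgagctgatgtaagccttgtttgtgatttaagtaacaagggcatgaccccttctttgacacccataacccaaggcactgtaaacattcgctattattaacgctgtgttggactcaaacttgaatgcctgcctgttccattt
PLA2G7 upstream, chr6:46735376-46735625 (- strand): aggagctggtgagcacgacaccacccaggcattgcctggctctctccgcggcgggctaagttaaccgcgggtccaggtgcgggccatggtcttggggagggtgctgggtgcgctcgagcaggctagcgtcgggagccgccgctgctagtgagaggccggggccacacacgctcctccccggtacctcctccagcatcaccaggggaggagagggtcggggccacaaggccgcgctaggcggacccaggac
NME8 encodes a thioredoxin-domain protein of ciliary axonemes, and its peak, the strongest of 7p, covered the first 20 of these bases. The summit stood 271 bases upstream of the start, with a fold of 7.32 from 14 reads. The capitals open a run of 26 bases that repeats every 9 bases. The CMSS1 and PLA2G7 peaks lay downstream of their starts, by 643 and 927 bases, so none of their upstream bases is in capitals. CMSS1 encodes a small-subunit ribosome biogenesis factor, with a fold of 6.34 from 12 reads, and PLA2G7 encodes a secreted phospholipase that hydrolyses platelet-activating factor, with a fold of 5.86 from 19 reads. The telomere unit TTAGGG, or CCCTAA on the other strand, occurred 0 times in all 3 stretches. For comparison, 7.97% of the 11583 listed promoters of these arms (923) and 7.94% of all 35116 listed promoters (2787) held it in the same 250 bases. Its absence here says only that these letters are not in these windows; the sequence under the peaks themselves was not analysed here.

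Most of the 1064 peaks rested on few reads. The summit pileup ranged over 5 to 99 reads with a median of 7, and the fold over 2.10 to 21.5 with a median of 3.76. The recovered background stood at its lowest value, 1.05 reads, at 893 summits (83.9%, 81.6 to 86.1%), against 29.5% of the whole list. All 893 shared that value, so their fold follows from the TRF2 reads alone. The value may be a floor of the peak caller and not input measured at each site, which was not tested. Because background and pileup took few values, 295 peaks (27.7%) shared a fold of 3.41 from 6 reads, 230 (21.6%) a fold of 3.90 from 7 reads, 160 (15.0%) a fold of 2.93 from 5 reads and 108 (10.2%) a fold of 4.39 from 8 reads. These 4 sets cover the pileups of 5 to 8 reads on the lowest background. The median width was 69 bp, the smallest in the list, and 542 peaks (50.9%) had exactly that width. All 1064 together covered 92.3 kb.

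Strong peaks were a minority. Of the arm peaks of chromosomes 2 to 7, 80 were strong (7.52%, 6.01 to 9.27%), against 30.0% of the whole list and 11.5% of the arm peaks of the other chromosomes, or 8.66% without the 4 densest arms named below. Under a q-value of about 0.05 (−log10 q of at least 1.3) there were 545 (51.2%), against 79.3% of the whole list, and 95 (8.93%) had a fold of at least 5, against 25.2%. On the arms of the other chromosomes these shares were 54.3% and 7.78%, or 53.1% and 10.1% without the 4 densest arms. The list reached down to a −log10 p of 3.01 and a −log10 q of 0.230. The 160 peaks that shared 5 reads had a −log10 q of 0.230, and the 295 that shared 6 reads had 0.811. By the peak caller's own q-values, many of the weaker peaks may therefore be false calls. Of the 900 peaks with 5 to 8 reads none was strong, whereas 23 of 102 were with 9 to 12 reads, 30 of 35 with 13 to 19 reads, all 25 with 20 to 49 reads and both of the peaks above that. The −log10 q grows with the reads, so this order is built into it. The median strong peak had 15 reads and a fold of 6.94, and 46 of them (57.5%) stood on the lowest background.

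**Figure D1:**
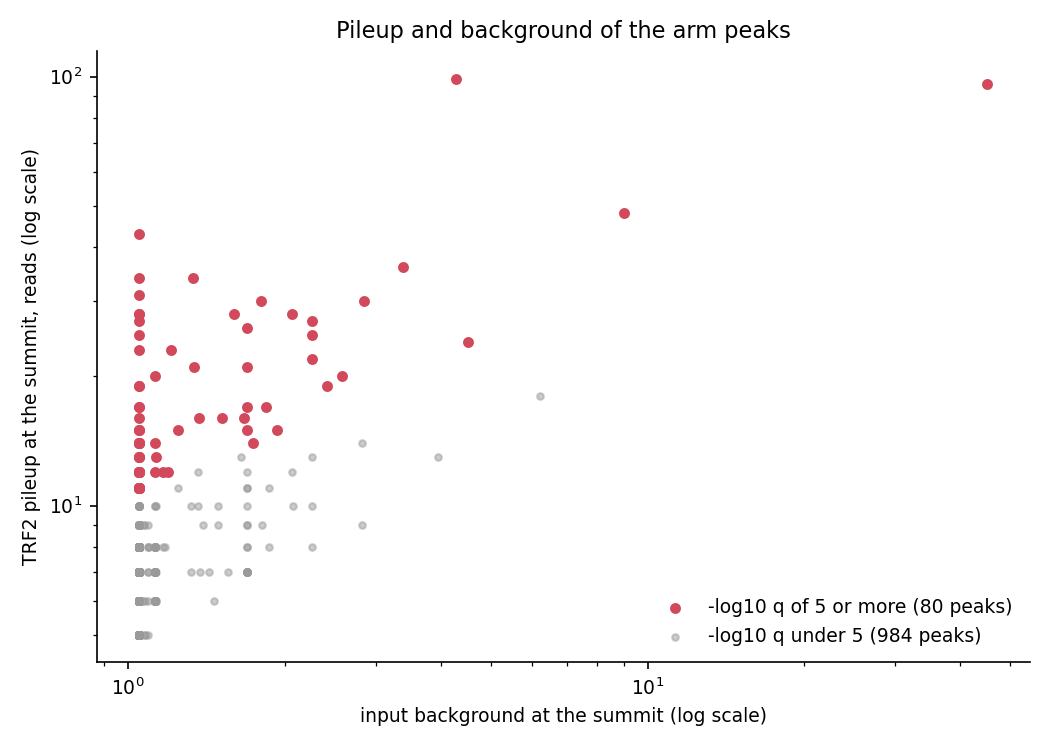
Each point is 1 of the 1064 peaks, with the input background at its summit on the horizontal axis and the TRF2 pileup in reads on the vertical axis, both on log scales. Most points stack on the lowest background of 1.05, red points (80 strong peaks) begin at 11 reads, and 1 peak far to the right had 96 reads over a background of 45.1.

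The label of sparseness could be set against the other arms. On chromosomes 2 to 7 there were 0.997 summits per Mb (0.938 to 1.06) over 1067 Mb of arm. On the 31 other arms, cut by the same limits, 2147 summits gave 1.33 per Mb (1.28 to 1.39), a ratio of 0.749 (0.695 to 0.806). The ratio was 0.934 (0.861 to 1.01) with 1 summit counted per locus and 0.860 (0.661 to 1.11) for peaks with a fold of at least 5, and both intervals include 1. It also depended on the 4 densest of the other arms, 1q, 8q, 10q and 17q. They were picked with their densities known, and dropping the densest arms lowers what is left by construction. Without them the other arms had 0.861 summits per Mb (0.811 to 0.913) and the ratio turned to 1.16 (1.06 to 1.26). Without X and Y as well it was 1.05 (0.966 to 1.15). The density of strong peaks, 0.0750 per Mb against 0.153 per Mb on all other arms, gave a ratio of 0.491 (0.377 to 0.635) and, without the 4 arms, 1.01 (0.738 to 1.37). Against the remaining arms, neither ratio was below 1.

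**Figure D2:**
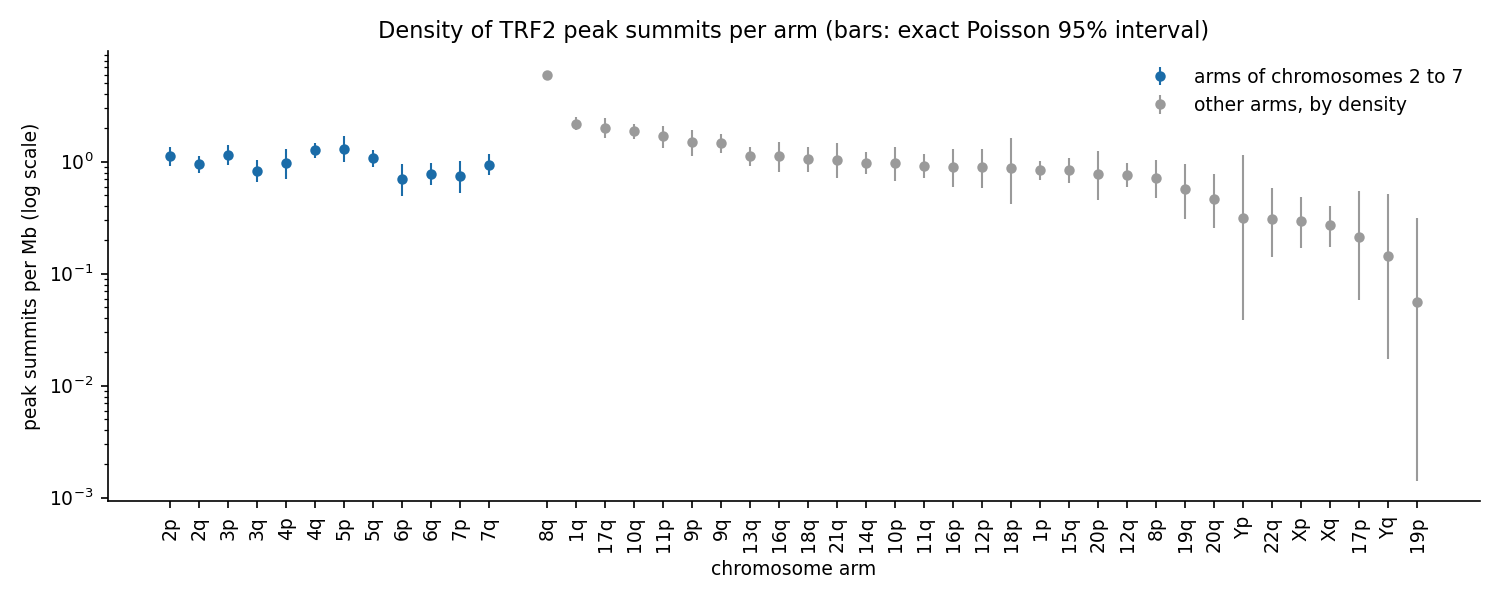
Summits per Mb on a log axis for the 12 arms of chromosomes 2 to 7 (blue, left) and the 31 other arms (grey, ordered by density), with exact Poisson 95% intervals. The 12 arms lie between 0.697 and 1.31 per Mb, while the others run from 0.0559 on 19p to 5.91 on 8q.

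The densities of the 12 arms differed less than 2-fold. The highest were 5p with 1.31 per Mb (55 summits; 0.984 to 1.70) and 4q with 1.27 (171 summits; 1.09 to 1.48), followed by 3p with 1.15 (96), 2p with 1.12 (98) and 5q with 1.08 (136). In the middle stood 4p with 0.973 (43 summits), 2q with 0.949 (135) and 7q with 0.944 (88). The lowest were 3q with 0.828 (83), 6q with 0.777 (81), 7p with 0.739 (40) and 6p with 0.697 (38; 0.493 to 0.957). Neighbours in this order had overlapping intervals, while those of 5p and 4q lay above that of 6p, and the highest was 1.87 times the lowest. The highest arm was 4q instead with 1 summit counted per locus (1.20 per Mb) and for peaks with a −log10 q of at least 1.3 (0.610 per Mb), and 6p was the lowest in both. For strong peaks, 2q had 14 and 2p had 12, of which 7 were in 1 locus at the 2 Mb limit, leaving 5 without it, while 3p, 5p, 6q and 7p had 2 each. On 6p, the arm of lowest density, 7 of 38 peaks were strong.

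**Figure D3:**
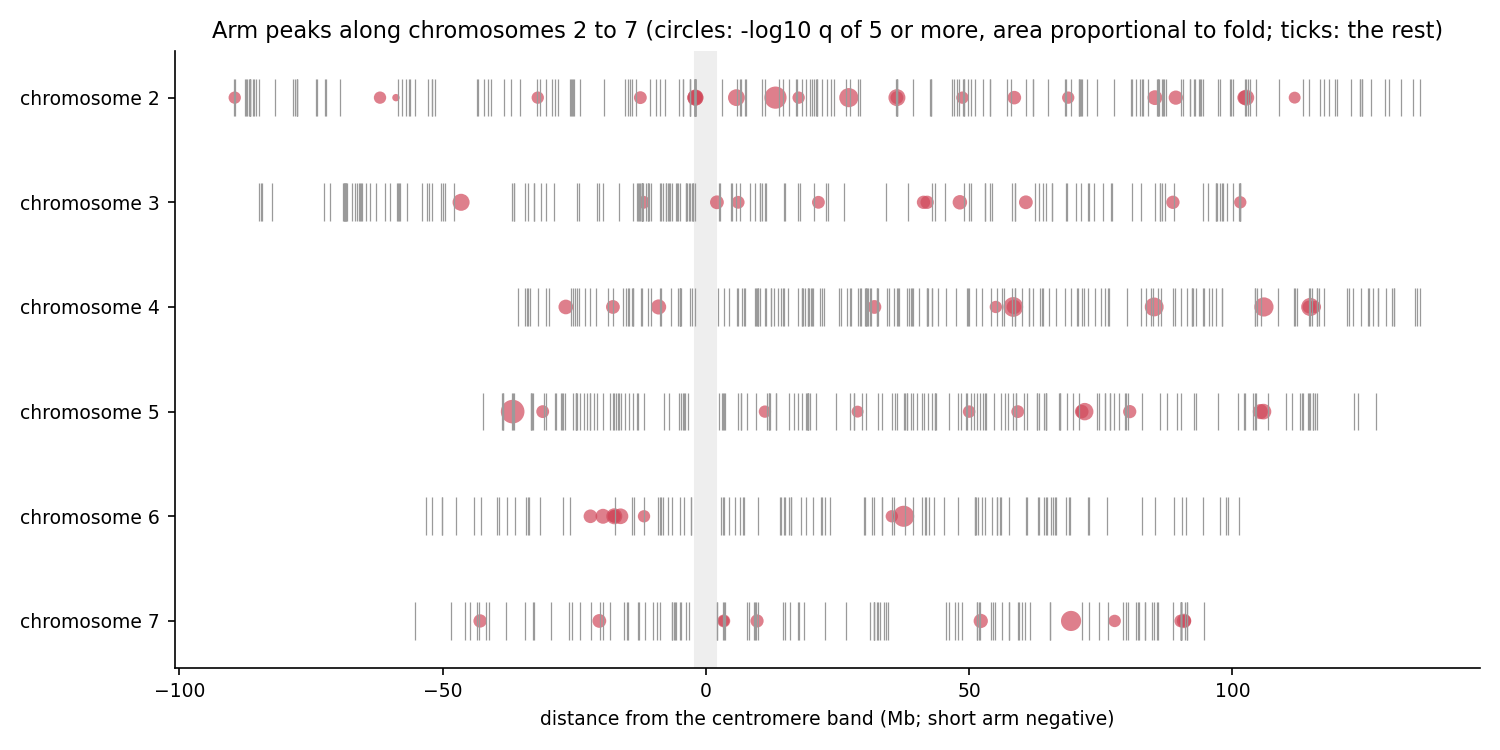
Each row is a chromosome, with distance from its centromere band in Mb (short arm negative); grey ticks are peaks that were not strong and red circles are the 80 strong peaks, with area in proportion to fold. Strong peaks are spread over all 12 arms, and the largest circle is the SEMA5A peak on 5p with a fold of 21.5.

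The spacing was wide. The median gap between neighbouring summits of an arm was 547 kb, and the largest was 11.0 Mb, between 96624708 and 107648960 on chromosome 7. Joining summits at most 50 kb apart gave 959 loci, of which 892 held a single summit and 51 held 2. In windows of 10 Mb the count ranged from 1 to 22 with a median of 9 over 91 windows. The emptiest window, 40 to 50 Mb of 3p, had 1 summit and 149 protein-coding genes; the fullest, 70 to 80 Mb of the same arm, had 22 summits, 5 of them in 1 locus near ZNF717, and 16 such genes. The 20 windows with 13 or more summits had a median of 30 protein-coding genes, and the 24 windows with 6 or fewer had a median of 57. Across the 91 windows the counts of summits and of genes ran opposite (Pearson's r = −0.417, Spearman's rho = −0.409), a description of windows that share 1 library.

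The 10 highest folds were at peaks both in and between genes. The highest fold was in SEMA5A, which encodes a transmembrane semaphorin of axon guidance: 21.5 from 43 reads at chr5:9384536-9384660. Next came a peak of 99 reads over a background of 4.28, a fold of 18.9, at chr2:109199330-109199851. It lay in SH3RF3, a scaffold of JNK signalling, and within the annotated span of RANBP2, a nuclear pore protein. That span, 1123 kb, covers SH3RF3 whole, so the assignment to RANBP2 is doubtful. A peak on 6q in the uncharacterised transcript LOC105377911 had a fold of 17.1 from 34 reads. MKLN1, a subunit of the CTLH ubiquitin ligase, held a fold of 15.6 from 31 reads, and ELOVL6, a fatty acid elongase, a fold of 15.0 from 34 reads. These 5 peaks each carried at least 31 reads, several times the median of 7.

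Of the other 5 among the 10 highest folds, 4 had no gene over the summit. A peak on 2q with a fold of 14.1 from 28 reads was 887 kb from CNTNAP5, the nearest protein-coding gene. On 4q, peaks with folds of 14.1 and 12.7 stood 344 kb from GASK1B and 153 kb from SPOCK3, a proteoglycan gene, and a fold of 13.7 lay in the noncoding LINC02511. The peak near SPOCK3 was the widest of all 1064, at 635 bp. A peak on 5q with a fold of 11.7 was 7.81 kb from CEP120, which encodes a centriole protein.

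After SEMA5A, SH3RF3, MKLN1 and ELOVL6, the protein-coding genes with the strongest summits, counting 1 gene per peak, had varied roles. Signalling genes were ULK4, a pseudokinase, with a fold of 11.2, MAP4K4, a stress kinase, with 10.9, and PPP2R3A, a regulatory subunit of phosphatase 2A, with 6.83. Genes of transcription factors were TRERF1 with 9.47, FOXP2 with 7.81 and NFYA, a subunit of the CCAAT-binding factor, with 9.87. Cytoskeleton and cilium genes were CYFIP2 of the WAVE complex with 9.41, WDR19 of intraflagellar transport with 8.78, DNAH8, an axonemal dynein, with 8.60, and NME8 with 7.32. SGCD, a muscle membrane sarcoglycan, had 8.78. KCNIP4, a potassium channel partner, had 8.29, and CALN1, a calcium-binding protein of neurons, had 6.69. GK5, a glycerol kinase, had 8.07 with its summit just outside the gene, AGMO, an ether lipid hydrolase, 6.83, and MEIKIN, a meiotic kinetochore protein, 6.75. The lowest of these 20 genes still had 13 reads or more at its summit.

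In all, 343 of the 5598 protein-coding genes of these arms (6.13%) had a summit in the gene or within 3 kb, 36 (0.643%) had a strong one and 27 (0.482%) had one within 3 kb of an end. The genes with a summit were long, with a median length of 201 kb against 33.8 kb for all 5598. A summit was present in 46 of 3346 genes under 50 kb (1.37%), in 21.8% of genes of 200 to 500 kb and in 75 of 137 genes over 500 kb (54.7%, 46.0 to 63.3%). A long gene offers more bases, so the density within gene bodies was set beside these shares. It was 0.716 per Mb in genes under 50 kb and 0.841 per Mb in those of 200 to 500 kb. In genes over 500 kb it was 1.17 per Mb (0.982 to 1.39), beside 1.10 per Mb (1.01 to 1.20) outside all annotated genes; its interval overlapped that of genes of 200 to 500 kb (0.692 to 1.01). KMT2C, a histone H3 lysine 4 methyltransferase, held the most summits, 8, followed by ROBO2, an axon guidance receptor, with 6. ZNF385D, KCNH8, CADM2, ADGRL3, CNTNAP2 and CCSER1 held 4 each.

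Summits fell both in and between genes, and the share near gene ends was below the share of arm length in those windows. Gene bodies held 54.0% of summits (51.0 to 57.1%) and 58.4% of the arm length. Protein-coding gene bodies held 37.2% and 43.0%. Windows of 3 kb around gene ends held 8.65% of summits (7.03 to 10.5%) and 14.0% of the length, and windows of 3 kb around transcript starts 2.26% and 4.92%. Of the strong peaks, 15.0% lay within 3 kb of a gene end (8.0 to 24.7%), an interval that holds the 14.0% of the length. Within 3 kb of a transcript start lay 7.50% of them (2.80 to 15.6%), an interval that holds the 4.92%. On the other arms without 1q, 8q, 10q and 17q, gene bodies held 52.5% of summits and 58.3% of the length, and gene ends 13.8% and 17.2%. The 668 summits outside protein-coding genes had a median distance of 196 kb to the nearest one, and 166 were over 500 kb from one.

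Chromosome bands that stain dark with Giemsa, which are known to be AT-rich, gene-poor and late-replicating, held more summits per Mb than light bands. Dark stands here for the 75% and 100% stains and light for unstained bands; bands of 50% stain had 154 summits, 1.04 per Mb, and bands of 25% stain 47, 0.727 per Mb. Dark bands had 473 summits, 1.20 per Mb (1.09 to 1.31), and light bands had 387, 0.846 per Mb (0.764 to 0.935), a ratio of 1.42 (1.24 to 1.62). For strong peaks the value was in the other direction, with 24 in dark bands and 43 in light bands, a ratio of 0.646 whose interval of 0.375 to 1.09 included 1. Of those 43, 7 were in the 1 locus on 2p at the 2 Mb limit and are not independent counts. The ratio without that locus was not computed. The dark-to-light ratio on the other arms without the 4 dense ones was 1.69 (1.48 to 1.94). Gene counts and summit counts ran opposite across windows, as given above, and the part of gene content in the band difference was not tested.

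**Figure D4:**
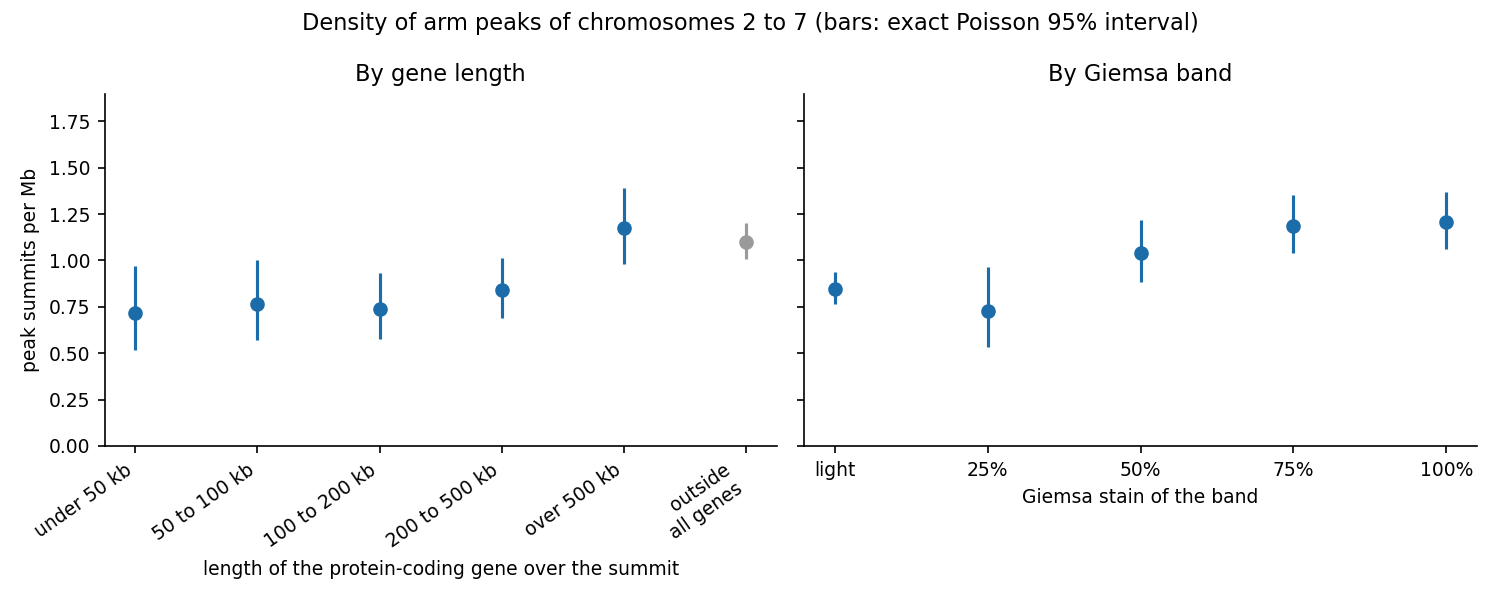
Summits per Mb of the arm peaks of chromosomes 2 to 7, by length of the protein-coding gene over the summit with intergenic sequence in grey (left) and by Giemsa stain (right), with exact Poisson 95% intervals. Genes over 500 kb (1.17 per Mb) and sequence outside genes (1.10) lie above shorter genes, and bands of 75% and 100% stain lie above light bands.

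Crowded loci were few. There were 16 loci of 3 or more summits, with 70 of the 1064 peaks and 15 of the 80 strong ones. The largest, at 2p11.2, had 20 summits in 30.0 kb (chr2:89769684-89799695), 7 of them strong, with folds of 2.93 to 10.0. It lay in the immunoglobulin kappa locus IGK and ran up to the 2 Mb limit around the centromere: the next 50 kb beyond the limit held 66 more peaks. The strongest of those had a fold of 20.2. Without the 2p11.2 locus there were 1044 peaks, of which 73 were strong (6.99%, 5.52 to 8.71%), and 2p fell to 78 summits, 0.888 per Mb, with 5 strong. The nearest peak inside each of the 24 limits had a median fold of 3.50 (2.89 to 7.32). The nearest outside had a median of 3.90 (2.74 to 8.40) over 23 limits, as the short-arm end of chromosome 2 had no peak outside.

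Of the other 15 crowded loci, some lay over genes and some between them. KMT2C held 2 of them, 5 summits at chr7:152377100-152390478 with folds of 3.56 to 4.83 and 3 at chr7:152278844-152291618, where the one strong peak had a fold of 6.34. The KMT2C summits of the first group stood on backgrounds above the lowest value, and KMT2C is known for partial copies elsewhere in the genome, so its values are uncertain. NFYA, with OARD1, an ADP-ribose hydrolase, on the same stretch, had 3 summits in 12.2 kb with folds of 6.58, 9.87 and 6.11 from 13, 20 and 12 reads, all strong. In SEMA5A the fold of 21.5 had a neighbour on either side with a fold of 3.41 from 6 reads. A group of 3 summits in 1.03 kb at 7q11.21, with no gene over it and 88.0 kb from ZNF92, had folds of 6.36, 2.64 and 4.89 from 16, 18 and 48 reads. The last 2 stood on backgrounds of 6.20 and 9.03, high in the input as well. Near ZNF717, a zinc finger gene, 5 summits in 3.29 kb had folds up to 4.83, and at 3q29, 10.1 kb from PPP1R2, a phosphatase inhibitor, 4 had folds up to 5.85. Only 1 of the 5 summits near ZNF717 stood on the lowest background, and the highest background among them was 1.87.

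The remaining 8 loci had 3 summits each and no strong peak, with folds between 2.93 and 4.39. They lay over GUSBP16, LVRN, ANKRD36BP2, LOC130890646 and the transcripts LOC105374432, LOC105374433 and LOC105374434, and, with no gene over them, nearest to MARCKS (49.8 kb), LRATD1 (469 kb) and CDH12 (295 kb). LVRN encodes an aminopeptidase, and GUSBP16 and ANKRD36BP2 are pseudogenes.

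**Figure D5:**
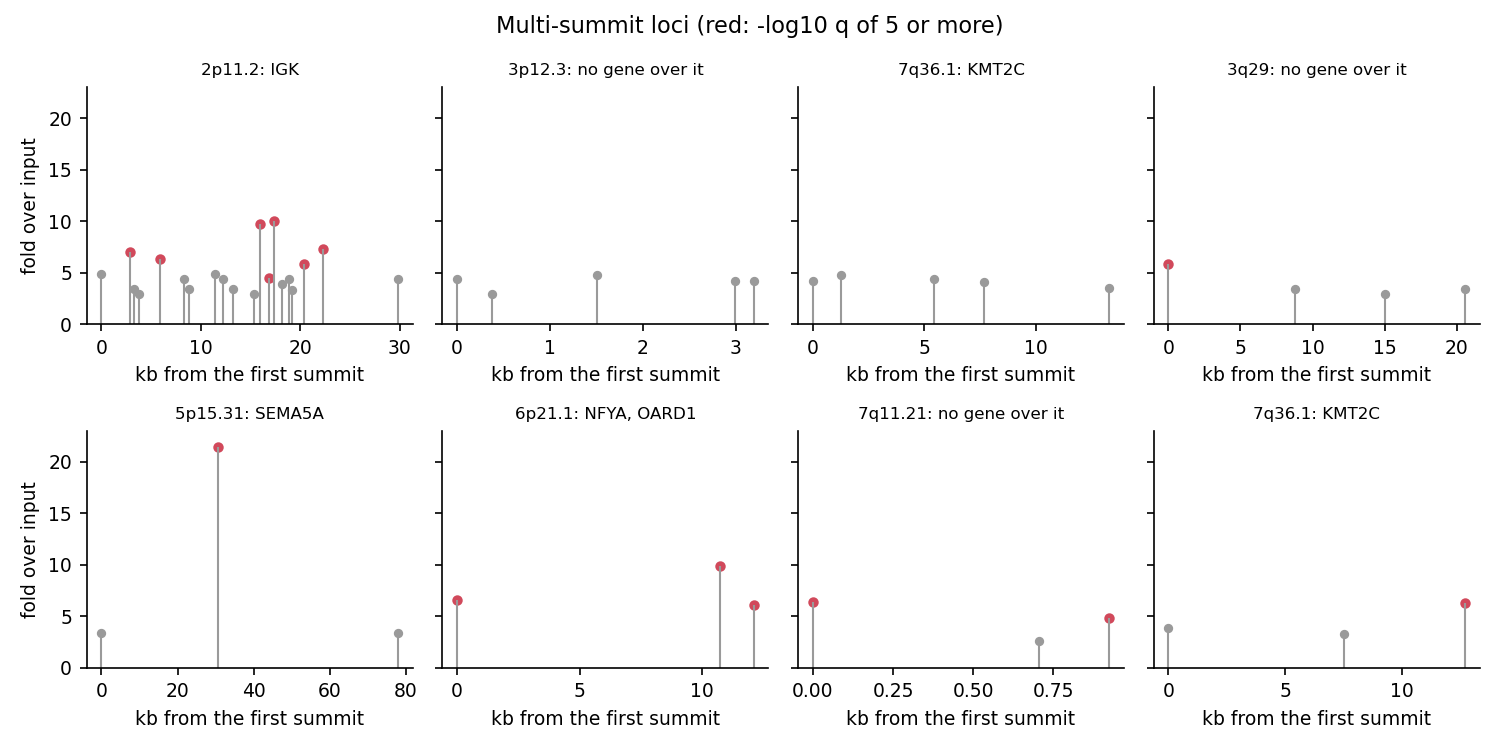
Fold over input of each summit, by distance in kb from the first summit, in the 8 loci with the most summits or strongest peaks; red marks strong peaks. The 2p11.2 locus holds 20 summits, the 3 at NFYA are all red, and SEMA5A has 1 tall summit of 21.5 between summits of 3.41.

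One peak had a background far above the rest. At chr2:32916258-32916597, 30.4 kb from LTBP1, there were 96 reads over a background of 45.1, so its fold of 2.10 was the lowest of all 1064 although it was strong. Only 3 of the 1064 summits had a background of 5 or more, this one and 2 of those at 7q11.21.

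A strong peak lay over DDX11L2, a pseudogene at the site on 2q where 2 ancestral chromosomes are known to have fused end to end. The peak chr2:113603018-113603093 had a fold of 5.87 from 20 reads over a background of 2.58, and its summit was 666 bases inside the gene's end. LOC124907874, annotated as protein-coding, overlapped it. It was the one strong peak among 20 summits over pseudogenes, which lay in 15 of the 5283 pseudogenes of these arms. Pseudogene bodies held 1.88% of the 1064 summits (1.15 to 2.89%), 1.44 times their share of the arm length, and that share lay inside the interval. The one strong peak over DDX11L2 was 1.25% of the 80 strong peaks (0.0316 to 6.77%), 0.959 times the same share of length. Copies of DDX11L genes are known near many chromosome ends, so the value at this site is uncertain. TERF1P3, a pseudogene of the TRF2 paralog TRF1, held a summit with a fold of 4.88 from 9 reads, while the nearest summit to TERF1P6 was 107 kb away.

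The lists of genes were read against the share of 6.13% over all protein-coding genes. None of 16 telomere maintenance genes (median length 80.0 kb) had a summit, ATR and GAR1 among them, and the nearest peak to POT1, which encodes the shelterin subunit that binds single-stranded repeats, was 1080 kb away. The nearest to TERC, the telomerase RNA gene, was 410 kb away. None of 5 genes earlier tied to TRF2 outside telomeres (median length 42.0 kb) had one, CDKN1A and IL1R1 among them. Counts of 0 in lists of this size are near the background share. Of 18 common fragile site genes 11 had a summit. CTNNA2, an alpha-catenin of neurons, had a fold of 6.34, AUTS2 of 4.88, and MAGI2 and CNTNAP2 of 4.39; ERBB4 and FHIT had none. Of 34 neuronal adhesion, guidance and synaptic genes 15 had a summit. KCNIP4 had a fold of 8.29, ROBO2 of 6.34, and CADM2 and EPHA5 of 4.39; CACNA2D1 and CACNA2D3 had none. Genes of these 2 lists are very long, with median lengths of 1392 kb and 745 kb, and genes over 500 kb had a summit in 54.7% of cases.

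Other lists had no summit or few. The 23 major histocompatibility genes, 22 homeobox genes, 55 histone genes of chromosome 6, 19 ribosomal protein genes, 14 epithelial to mesenchymal genes and 7 annexin and S100 genes had 0. Several of these lists hold short genes, with median lengths of 7.19 kb for the histocompatibility list, 3.05 kb for the homeobox list and 0.489 kb for the histone list, and genes under 50 kb in general had a summit in 1.37% of cases. Of 22 colorectal cancer genes PIK3CA, a lipid kinase, had a fold of 3.41 and LEF1, a Wnt pathway transcription factor, of 2.76. The PIK3CA summit lay just outside the gene, within 3 kb of its end. APC and ACVR2A had no summit in the gene or within 3 kb. HS3ST5, a heparan sulfate sulfotransferase, was 1 of 13 in its list, with 3.41, and CENPE, a kinetochore motor, 1 of 23 cell cycle and DNA damage genes, with 3.41. Of 44 olfactory receptor genes, 4 had a summit in the gene or within 3 kb. OR2A42, with its summit just outside the gene, had a fold of 4.18, OR9A4 of 3.41, OR2A4 of 3.37 and OR2A7 of 2.84. They are short genes of a family with near-identical copies. Of 71 ZNF genes, ZNF92 had a fold of 3.41 and ZNF717 of 3.29. All 13 protocadherin genes with a summit, of 53, shared 1 peak of fold 2.93, since their annotated spans overlap.

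Of 476 miRNA genes, 1 (0.210%, 0.00532 to 1.16%) had a summit within 3 kb. It was MIR4273, which lies within ZNF717, and its peak is the same one counted there, of fold 3.29 from 6 reads. By the same 3 kb rule, 6.13% of all protein-coding genes and 1.37% of those under 50 kb had a summit. MIR4273 is only 0.084 kb long, and the low count is not read as a result about miRNA genes. The mature sequence from RefSeq (GRCh38.p14, chr3:75738290-75738307, + strand), shown as the one miRNA with a nearby peak, has its seed, bases 2 to 8, in capitals.
hsa-miR-4273: gUGUUCUCugauggacag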

How the data were processed

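TRF2 chromatin immunoprecipitation against input in HCT116 gave 1 peak list on hg38. Per the submitters' processing notes, reads were aligned with Bowtie2 2.3.2 and peaks involved MACS2 2.1.0, besides HOMER and ChIPseeker 1.36.0; their settings and the sequencing depth were not given in the sources used here, and the input was analysed only through this list. The deposited fold is a ratio of pileup to the background used at the summit, which had a shared lowest value of 1.05. The authors' peak caller gave each deposited −log10 p-value and q-value at the summit. The deposited score was 10 times that −log10 p-value, cut to a whole number. The deposited summit offset was added to each start.

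The pileup and background were recovered from fold and p-value (pseudocount of 1, upper Poisson tail). In 100% of peaks a whole pileup fitted both within 0.001 on −log10 p; the recovery was tested on simulated data. Bands came from circlize 0.4.16 and lengths from GenomeInfoDb 1.38.1 (R 4.3.3), genes from RefSeq GRCh38.p14 (58961 on primary sequences). Other arms leave out variable heterochromatin and stalk bands. The promoter table holds no chromosome 8. Gene positions are spans without strand or exons. Telomere repeats in peak intervals were not analysed here. Software was Python 3.11.15 with pandas 2.3.3, scipy 1.17.1, matplotlib 3.10.9 and numpy 2.4.6. Coordinates are 1-based.

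Named are the 10 highest folds, the 20 protein-coding genes with the highest fold (1 gene per peak), every locus of 3 or more summits, the strongest peak of each arm, peaks at the 2 Mb limits, miRNA genes with a summit, and up to 4 genes with and 2 without a summit per list; DDX11L2, TERF1P3, CMSS1, PLA2G7 and the peak near LTBP1 were chosen after their values were seen. Members, lists and rules were chosen with earlier results of these data known. With 1 library per side no test between samples was run.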

Additional observations from a re-analysis of the deposited data

How the results depend on the processing

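Over 14 results and 145 alternatives, 101 values stayed within the interval of the value reported (for counts, within 1.5 times it), 42 moved and 2 turned round. Only the density ratio to the other arms could be scored as turned round. The 2 were the density ratio to the other arms, 0.749 as reported, which was 1.16 without 1q, 8q, 10q and 17q and 1.05 also without X and Y. That ratio was 0.491 for −log10 q of at least 5, 0.860 (0.661 to 1.11) for fold of at least 5, 0.688 at 5 Mb and 0.934 (0.861 to 1.01) with 1 summit per locus. At a −log10 q of at least 1.3 there were 545 peaks (lowest arm 0.385, highest 0.610 per Mb), median fold 4.22, 8 reads, 6 loci, 0.603 per Mb in dark and 0.451 in light bands, and 17 list genes instead of 48. At 5 there were 80 peaks (0.0192 and 0.137), fold 6.94, 15 reads, 60.0% in gene bodies, 15.0% near gene ends, 2 loci, 0.0608 and 0.0941, and 3 list genes. At a fold of at least 5 there were 95 peaks (0.0192 and 0.130), fold 6.36, 14 reads, 11.6% near gene ends, 2 loci, 0.0760 and 0.105, and 3 list genes. Under these last 2 cuts dark bands had fewer summits per Mb than light bands, the reverse of the order for all peaks. Those values were scored only as moved. For −log10 q of at least 5 the interval of the band ratio, given above, included 1. Counts and densities fall under a stricter cut by construction. With 1 summit per locus light bands had 0.728 per Mb. With protein-coding genes only, 37.2% lay in gene bodies and 2.35% near ends; windows of 1 kb and 10 kb held 3.20% and 28.7%. A locus distance of 10 kb gave 7 loci. Genes over 300 kb and those over 1 Mb held 22.3% and 4.70%. Leaving out each chromosome in turn gave ratios of 0.718 to 0.781, strong shares of 6.50 to 8.0%, 12 to 15 loci, and moved none of the 11 results run. Among these, the number of summits (831 to 945) could not pass the 1.5-fold limit, as each chromosome holds a small part of it. Arm densities and list genes were not run so. The second set of other arms, and leaving out the 2p11.2 locus, were chosen after seeing the data. No paired analysis was possible because each side had 1 library. The telomere repeat share was not run, as no genome was given. Peaks of 5 to 8 reads limit what depth can show: 1 read decides their fold.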
